A study of Mus musculus with 6 samples.

Results

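The mouse miRNAs miR-6896 to miR-7094 are a block of consecutively registered hairpins, many of them cut from introns, and the 5p arms of these hairpins are described here in exosomes of a macrophage line. The members were every non-control miRNA of the array with a number in that range, any letter suffix, and a name ending in -5p, which gave 201 of the 1881 miRNAs on the array. The choice used names only and no measured value. Exosomes, small vesicles that cells release, had been collected by size-exclusion chromatography from the supernatant of RAW 264.7, an established mouse macrophage line, and their RNA was hybridised to Agilent mouse miRNA arrays in 1 colour, 1 sample per array. The 3 control samples came from cells without stimulation, and the 3 LPS samples came from cells given lipopolysaccharide (LPS), part of the outer membrane of Gram-negative bacteria and a strong stimulus of macrophages, at 2 µg/mL, with supernatant taken after 72 h. The labels give no culture time for the controls, so an effect of LPS and an effect of time in culture cannot be told apart. Nor do they say that the replicates were separate cultures, so the p-values reflect how much these particular samples varied, possibly for technical reasons alone.

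A miRNA hairpin yields a 5p and a 3p arm, and usually 1 of them is loaded into an Argonaute protein and kept while the other is degraded. Hairpins that are short introns, called mirtrons, are released by splicing and debranching instead of by the Drosha enzyme; the 3p arm of such a hairpin ends at the 3′ splice site, which reads AG, behind a pyrimidine-rich stretch. The seed, bases 2 to 8 from the 5′ end, is the stretch that mainly decides which messenger RNAs a miRNA pairs with.

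The sequences below are those on which the comparison between the groups turned, taken from RefSeq (GRCm38.p6), 5′ to 3′, with the seed in capitals. By the brightest probe of each, the first set were lower in LPS exosomes under each scaling tried.
miR-6946-5p: aAAAGGGAgagaaagaaaugc
miR-7075-5p: cGGGGAGGaggacaugguuuu
miR-6961-5p: uGACUGGGaaggaaauggcc
miR-7084-5p: uAGAGGAUagagguagagagu
miR-6960-5p: cAGGAUGAgaagaguuuggcug
miR-7011-5p: aGGAGGAUgggagagggaggugu
miR-6938-5p: uUGGAGCUagcuccagagagagu
miR-6978-5p: aAGGGGUGagagagaagcuggug
miR-7016-5p: cAGGGAGGggagcgagaguag
miR-7048-5p: cGGGGCUGagaggugaggaagc
miR-6957-5p, the remaining member of that set, is named only. The following members were higher in LPS exosomes under each scaling tried, or, for miR-6907-5p, were detected in LPS exosomes and not in control exosomes.
miR-6931-5p: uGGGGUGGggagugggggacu
miR-6944-5p: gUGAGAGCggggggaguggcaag
miR-6969-5p: cAGCAGAGuagggagcaaaaga
miR-6965-5p: aGAGGGAGgcuauugggcaggaga
miR-7047-5p: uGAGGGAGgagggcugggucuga
miR-7050-5p: aCAGGAGAagggggugagaga
miR-7036a-5p: aGCGGGGUucgguggggaagaga
miR-7005-5p: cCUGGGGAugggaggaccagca
miR-6907-5p: uUCUGGGAcacagggaggcucg
miR-7042-5p, also higher under each scaling, is named only. A pair whose direction turned with the scaling is shown beside them.
miR-6908-5p: uUGCCUGUcagggagagcccca
miR-7082-5p: uACGGGCAggaggaggggagg
The 3p arms of 3 of these hairpins show how the arms differ, and miR-6948-3p is the only 3p arm of the number range that was detected.
miR-6931-3p: cCCAACCUcuucauaccccag
miR-6946-3p: uUUCUUCUcuucccuuucag
miR-6978-3p: aCGGCUUCacucucacccugcag
miR-6948-3p: uGUCCUUCcugucugaccaca
Most of the 5p arms shown hold more A and G than C and U (miR-6908-5p holds 50% of each kind), and the 3p arms shown more C and U. Of the 201 members, 177 matched a RefSeq mature sequence.

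The arrays of the groups differed in brightness before any scaling. For the 198 miRNAs that every array detected, the unscaled 75th percentile reached 477 ± 41.0 (SD, n = 3) in control and 2229 ± 180 in LPS samples, 4.67-fold higher, while the geometric mean of the RNAs spiked into every sample was 2707 ± 84.0 and 2377 ± 181. Signals are therefore given scaled to the 75th percentile of those 198 shared miRNAs, as a position relative to them, and the log2 change after scaling to the spiked-in RNAs is given where it matters. A more abundant small-RNA content and a larger amount of input RNA cannot be told apart from these data. Within a group the arrays correlated at Pearson's r of 0.998 or more over the 198 miRNAs, and between groups at 0.596 to 0.612, which describes miRNAs of the same array and is no test. Of 6 myeloid miRNAs 6 were detected, 5 of them on all 6 arrays, with summed scaled signals of 11190 to 11560 in control and 28298 to 31294 in LPS samples. Most of these sums came from miR-21a-5p (means 7076 and 18133) and miR-146a-5p (3986 and 10127), which also respond to LPS. miR-223-3p gave 91.9 and 194, and miR-142a-3p 80.2 and 130, beside 73.1 and 307 for the neural miR-128-3p. The sums are therefore no measure of macrophage identity. Of 4 miRNAs typical of serum and red cells and 3 of muscle, 0 were detected; 1 of 6 epithelial and 2 of 4 neural miRNAs were.

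Of the 201 5p arms, 128 were detected on no array, by the detection flag of the scanner software, and 73 (36.3%) on at least 1, against 464 of all 1881 miRNAs (24.7%). On 35 members the signal was detected on all 6 arrays. A further 22 were detected on all 3 LPS arrays and on no control array, and 3 on all 3 control arrays but fewer than 3 LPS arrays. The control arrays detected 40, 41 and 38 members (39.7 ± 1.53, SD, n = 3) and the LPS arrays 69, 60 and 60 (63.0 ± 5.20). The groups did not overlap, and the whole array moved the same way, with 213 to 228 miRNAs detected on control and 412 to 446 on LPS arrays. The members made up 17.7 to 18.8% of the miRNAs detected on a control array and 14.1 to 15.5% on an LPS array. The LPS arrays were also the brighter ones, as given above, and the part of brightness in the added detections was not tested. The 11 members detected on some arrays but on all 3 of neither group were weak, between -7.88 and 30.7 unscaled units, and were not tested.

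**Figure D1:**
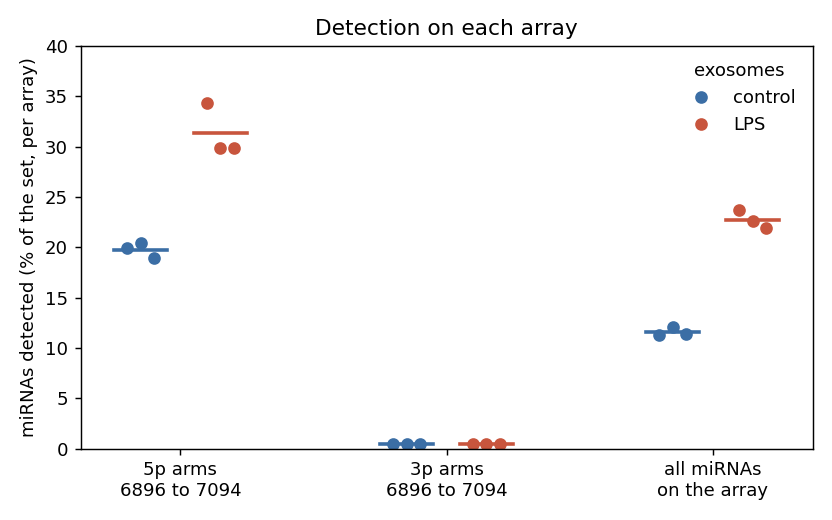
Share of miRNAs detected on each array, in percent of the 201 5p arms, the 199 3p arms of the same numbers and all 1881 miRNAs; points are arrays and lines are group means. The 5p arms were detected at 18.9 to 20.4% on control and 29.9 to 34.3% on LPS arrays, and 1 of 199 3p arms (0.503%) on each.

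The 3p arms of the same number range were almost absent. Of 199 of them, 1 (0.503%) was detected on any array, and the other 198 reached at most 20.5 unscaled units. For the 198 hairpins with both arms on the array, the 5p arm alone was detected for 72, the 3p arm alone for 1, neither for 125 and both for 0. Each of the 35 members detected on all 6 arrays thus had a 3p partner that was detected on none. The exception was miR-6948-3p, whose mean scaled signal was 1760 in control and 3166 in LPS samples (log2 difference 0.85, SE 0.08, limma with Benjamini-Hochberg adjusted p = 4.38e-05). The arms have different probes, so the contrast is one of detection and not a ratio of their amounts.

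Relative to the shared miRNAs, the 5p arms shifted in both directions. Of the 62 members that were detected on all arrays of at least 1 group and so tested, 27 were higher and 32 lower in LPS exosomes (limma, adjusted p under 0.05), and 3 did not pass. The LPS arrays alone brought 22 of the 62 into the test, and 15 of these were called higher, 4 lower and 3 neither. Where such a member had all its control values set to the floor of 9.89, its p-value reflects no control spread. The count of 27 is therefore partly set by the detection filter and the floor. Over all 412 tested miRNAs of the array, 65.5% were higher and 26.7% lower. The members' median log2 difference was -0.34, beside 0.85 over all tested miRNAs. Among the 35 members detected on all 6 arrays, 12 were higher and 23 lower, with a median of -1.61 and a range of -4.23 to 3.03. Of the 198 shared miRNAs, 58.1% were higher and 38.4% lower, and the median was 0.77. Samples of the groups did not overlap for 35 of these 35 members, and for 60 of the 62 tested; for all tested miRNAs that share was 93.4%.

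Scaling set part of these directions. With the spiked-in RNAs as the reference, 46 of the 62 members were higher and 14 lower (89.8% and 9.22% of all tested miRNAs), and their median became 1.13, beside 2.15 for all. For the 35 members on all 6 arrays it was 22 higher, 11 lower and 2 not passing (81.8% and 16.2% of the 198), with a median of 0.81 beside 3.18. A change of reference shifts all miRNAs well above the floor by the same amount, so the gap between the last pair of medians is the same under both scalings by construction. Without scaling, 45 members were higher and 14 lower (88.3% and 9.47% of all). Background correction by normexp gave 11 higher and 49 lower (27.4% and 68.9% of all). The position on the slide was checked too. All arrays lay on 1 slide, the control samples and LPS sample 1 in its row 1. Slide row as a block gave 26 higher and 31 lower of 62, beside 27 and 32 without the block. No share over all tested miRNAs is given for that fit, so its counts only check those of the main fit. Within row 1 the LPS arm is 1 sample, which is assumed to vary as the controls do, so calls there carry no LPS spread.

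The most reduced member was miR-6946-5p, which lies within the span of Sec24c, a gene for a coat protein of vesicles leaving the endoplasmic reticulum (chr14:20690640-20690660, plus strand, GRCm38.p6). Its scaled signal was 1103, 1093 and 1037 in the control samples and 59.0, 56.7 and 57.0 in the LPS samples. The groups were far apart, and the LPS samples were nearly equal. The log2 difference was -4.23 (SE 0.04, limma adjusted p = 4.71e-09), 18.7-fold lower in LPS exosomes. It was also lower before any scaling, with 462, 542 and 494 units in control and 116, 129 and 129 in LPS samples, and by 3.51-fold on the spiked-in scale. In slide row 1, with its single LPS sample, the log2 difference was -4.19.

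**Figure D2:**
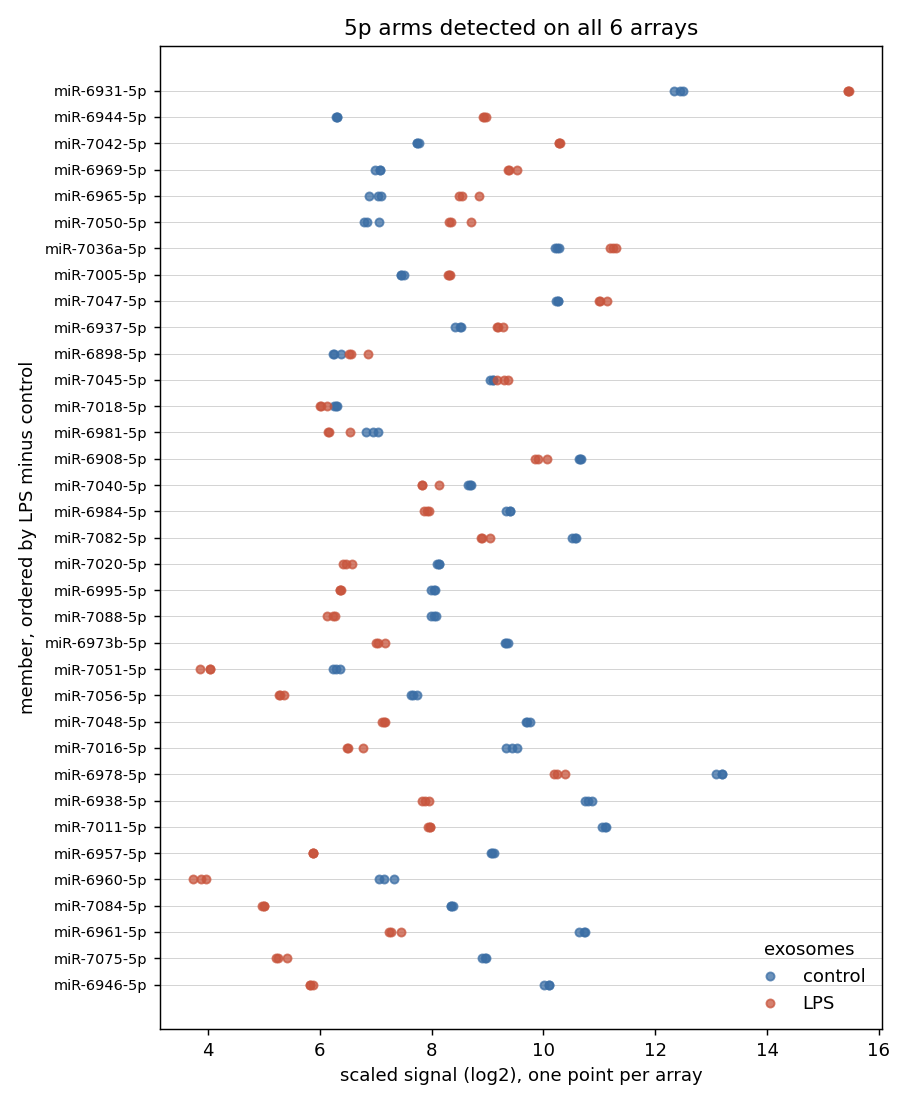
Scaled signal, on a log2 axis, of the members detected on all 6 arrays, 1 point per sample, for control and LPS exosomes. The points of a group lie close together, from miR-6946-5p, 18.7-fold lower in LPS, to miR-6931-5p, 8.20-fold higher.

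The members next in size of difference were also lower on every scale. miR-7075-5p, within Terf2, a telomere-binding protein gene, gave 502, 480.1 and 494 in control and 42.9, 38.2 and 37.4 in LPS samples. This was a log2 difference of -3.64 (SE 0.06, limma adjusted p = 2.03e-08), and -1.23 on the spiked-in scale. This rests on its brighter probe: the other was well above background on 0 arrays, at 19.9, 26.0 and 19.6 against 1.75, 0.886 and 0.331, and gave -1.13 with the LPS values at the floor. miR-6961-5p, within Bin2, a membrane-curving protein of blood cells, gave 1688, 1587 and 1721 against 175, 150.1 and 156. Its log2 difference was -3.38 (SE 0.07), a 10.4-fold lower signal, with -0.96 on the spiked-in scale. Its signal in control samples was therefore well clear of that in LPS samples on either scale. miR-7084-5p, within Elof1, a transcription elongation factor, gave 334, 327 and 327 in control and 31.9, 31.1 and 32.1 in LPS samples. It was lower to the same degree, by a log2 difference of -3.38 (SE 0.04).

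miR-6960-5p, within Troap, a gene for a spindle-associated protein, gave 161, 142 and 134 in control and 15.7, 14.7 and 13.2 in LPS samples. It was not well above background on any LPS array, a flag the scanner software sets per spot and that is required here on at least 50% of a probe's spots. So only a bound holds: it was at least 9.30-fold higher in control exosomes, and at least 1.74-fold on the spiked-in scale. The signal of miR-6960-5p, and so its direction, rests on its brighter probe. Its other probe was well above background on 0 arrays, at -8.24, -5.91 and -4.24 in control and -2.45, -3.42 and -3.59 in LPS samples. A bound sets the mean of the bright group against the faintest signal called well above background on the arrays of the dim group, or the probe's own where that is higher. The other members of the reduced set had measured levels in both groups. miR-6957-5p gave 552, 539 and 536 in control and 59.1, 58.6 and 58.9 in LPS samples, a log2 difference of -3.20 (SE 0.03) and -0.79 on the spiked-in scale. Its samples hardly varied within a group. miR-7011-5p, within the immune semaphorin gene Sema4a, gave 2219.8, 2123 and 2193 against 251, 244 and 249. It was 8.77-fold lower, with a log2 difference of -0.72 on the spiked-in scale. The groups again did not overlap. miR-6938-5p, within the mismatch repair gene Mlh3, gave 1868, 1717 and 1779 against 228, 235 and 247, which was 7.55-fold lower (-0.50 in log2 on the spiked-in scale).

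miR-6978-5p lies within the span of C3, the gene of complement component C3 (chr17:57217201-57217223, minus strand). It gave 9351, 8661 and 9380.2 scaled units in control and 1338, 1174 and 1215 in LPS samples. The log2 difference was -2.88 (SE 0.06, limma adjusted p = 5.82e-08), a 7.36-fold lower signal. Before scaling the gap was much narrower, with 3920.4, 4294 and 4469.7 units in control against 2629, 2673 and 2741 in LPS samples. The groups still did not overlap, and the log2 difference on the spiked-in scale was -0.47. miR-7016-5p and miR-7048-5p, named after their values were seen, had log2 differences of -2.85 and -2.58 relative to the shared miRNAs. They complete the 11 members detected on all 6 arrays that were lower under every one of the 8 scalings and signal choices compared. The value of miR-7048-5p is that of its brightest probe. Its other probe, also well above background on all 6 arrays, gave only -0.62, and the direction of that probe on the spiked-in scale was not computed.

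Among the members detected on all 6 arrays, the one that rose most was miR-6931-5p, which lies within Dcakd, a gene named for its dephospho-CoA kinase domain (chr11:102999896-102999916, minus strand). Its scaled signal was 5745, 5542 and 5191 in control and 44959.6, 45188 and 44783 in LPS samples. The LPS samples were within a narrow range of each other and far from the controls. The log2 difference was 3.03 (SE 0.05, limma adjusted p = 1.65e-08), 8.20-fold, and 5.45 on the spiked-in scale. Its second probe gave 3.32. Its probe alone carried 15.7% ± 0.71 (SD, n = 3) of the members' detected signal on the control arrays and 74.8% ± 0.81 on the LPS arrays.

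With this probe included, the members' share of the summed brightness was higher in LPS samples, and without it lower. The members held 14.9, 14.7 and 15% of the detected signal in the control samples and 20.0, 19.9 and 19.7% in the LPS samples. Without miR-6931-5p the share was 12.6% ± 0.22 (SD, n = 3) in control and 5.01% ± 0.19 in LPS samples. These are shares of probe brightness, which differs between probes, and not of molecules.

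The other members that rose with every scaling had moderate signals. miR-6944-5p, within Dbn1, the gene of the actin-binding protein drebrin, gave 78.1, 79.6 and 78.9 in control and 485, 505 and 491 in LPS samples, a log2 difference of 2.65 (SE 0.04, limma adjusted p = 1.1e-08). The groups were widely separated. Its other probe gave a smaller log2 difference of 1.33, with 52.4, 54.2 and 57.7 in control against 133, 143 and 138 in LPS samples. The brighter probe was well above background on 5 of the 6 arrays, and the other on 3. miR-7042-5p gave 213, 218 and 213 against 1248, 1241 and 1260.2, 5.82-fold higher. miR-6969-5p, within Clps, the gene of the pancreatic lipase cofactor colipase, gave 136, 128 and 136 against 658, 739.8 and 669, 5.18-fold higher. The groups did not overlap for these members either. miR-6965-5p, within the cyclin gene Ccnf, gave 118, 131 and 136 in control and 461, 361 and 373 in LPS samples. Its log2 difference was 1.63 (SE 0.11). miR-7050-5p, within Fxyd5, a regulator of the sodium pump, gave 115, 111 and 133 against 416, 318 and 324, with a log2 difference of 1.55 (SE 0.13). In both of these members LPS sample 1 was the highest and the spread was wider than elsewhere.

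Smaller rises were measured with as little spread. miR-7036a-5p, within Srrt, a gene whose product takes part in miRNA processing, gave 1236, 1207 and 1181 in control and 2510.1, 2426 and 2336 in LPS samples. This was 2.01-fold (limma adjusted p = 1.03e-06). miR-7005-5p, within the laminin gene Lama5, gave 176, 174 and 182 against 322, 315 and 319.5, and was 1.80-fold higher. miR-7047-5p gave 1222, 1225 and 1192 against 2246, 2031 and 2076, and was 1.74-fold higher. The log2 differences of these 3 members, 1.0, 0.85 and 0.80, lay near the median of all tested miRNAs given above.

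For a group of members the direction depended on the reference. Of the 23 members on all 6 arrays that were lower relative to the shared miRNAs, 11 were lower on the spiked-in scale too, 10 turned higher and 2 (miR-7051-5p and miR-7056-5p) no longer passed. All 12 of the higher members were also higher on the spiked-in scale, though miR-6898-5p among them was lower with normexp. miR-7082-5p, within Raver1, a gene for an RNA-binding splicing cofactor, gave 1531, 1460.0 and 1518 scaled units in control and 528, 472 and 481 in LPS samples. It fell by 1.61 on the log2 scale relative to the shared miRNAs (SE 0.06), and was higher by 0.81 on the spiked-in scale and by 0.62 without scaling. miR-6908-5p, within the pyridoxal kinase gene Pdxk, gave 1637, 1617 and 1599.9 against 1069, 957 and 917. Its log2 difference was -0.73 (SE 0.06) relative to the shared miRNAs, but 1.69 on the spiked-in scale. For these members a direction holds only against the reference named.

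**Figure D3:**
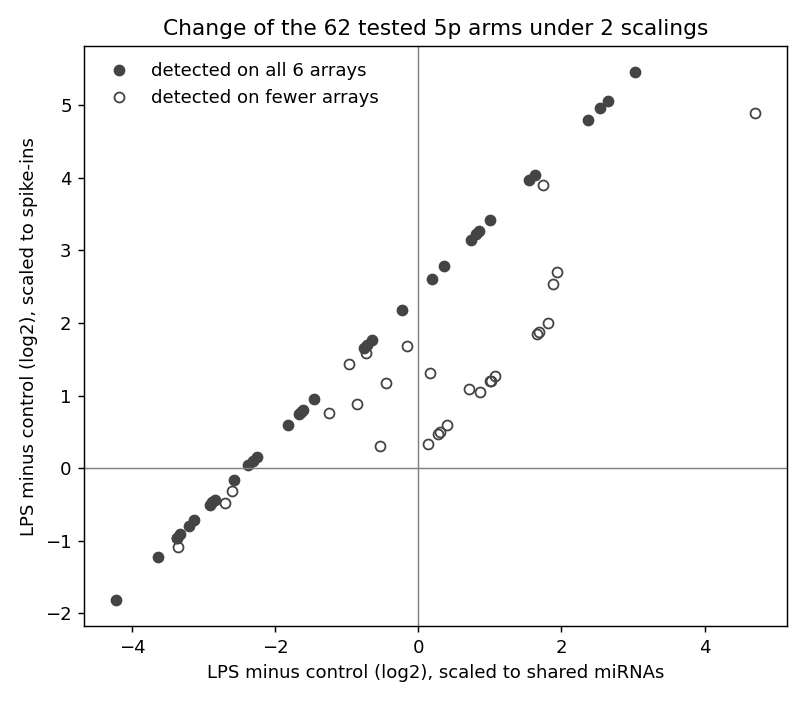
Log2 difference, LPS minus control, of the 62 tested members, scaled to the shared miRNAs (horizontal) and to the spiked-in RNAs (vertical); filled points are the 35 members detected on all 6 arrays. The filled points keep their order while the zero line moves, so that 23 lie left of 0 and 11 of these were called lower on the spiked-in scale too.

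Of the 62 tested members, 28 were well above background in at most 1 group and have only a bound. In 6 of these the signal was well above background in neither group. In 19 the signal was well above background in the LPS group alone, although the scaled signal of 6 of them, such as miR-6904-5p and miR-6918-5p, was lower in LPS samples. Of the 19, 2 have a bound above 1 relative to the shared miRNAs, against 19 on the spiked-in scale. miR-6907-5p, within Rrp1, a gene for a ribosomal RNA processing factor, gave -15.7, -9.76 and -8.90 in control, below the subtracted background, and 324, 222 and 236 in LPS samples. It was at least 3.72-fold higher in LPS exosomes, and at least 19.8-fold on the spiked-in scale. These bounds rest on its brighter probe. The other probe gave -21.4, -20.1 and -15.2 in control and only 56.1, 34.9 and 36.5 in LPS samples, and no bound was computed for it. For the brighter probe, the limma adjusted p = 1.72e-07 belongs to a log2 difference of 4.70 with all control values set to the floor. That p-value therefore reflects no control spread and does not test the bound. miR-6987-5p, within Pcnx3, gave 36.2, 39.1 and 39.8 against 125, 129.6 and 131, at least 1.86-fold higher. Its control samples were not well above background. The 22 members seen in LPS exosomes alone were mostly weak, with mean unscaled LPS signals of 23.2 to 558 and a median of 43.1. Relative to the shared miRNAs 15 of these 22 were called higher, 4 lower and 3 neither. The 4, miR-6904-5p, miR-6918-5p, miR-6942-5p and miR-7014-5p, are among the 32 members counted as lower although they were detected on LPS arrays alone, and 0 of them were lower on the spiked-in scale.

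In the opposite direction, 3 members have a bound above 1 for control over LPS: miR-6960-5p, described above, miR-7057-5p and miR-7022-5p. miR-7057-5p gave 103, 98.8 and 104.7 in control and 9.96, 6.90 and 7.47 in LPS samples, at least 6.88-fold higher in control exosomes and at least 1.29-fold on the spiked-in scale. miR-7022-5p, within Fbxo6, a gene for a ubiquitin ligase subunit that reads glycoproteins, gave 64.1, 68.0 and 60.8 against 7.21, 6.78 and 6.25. It was at least 4.33-fold higher in control exosomes, was well above background on 1 control array, and has no bound above 1 on the spiked-in scale. miR-6980-5p was detected on the 3 control arrays and 1 LPS array, but was well above background on none.

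Most members were measured by a pair of probes that end at different bases of the same target. For the 35 members detected on all 6 arrays the probes gave opposite directions for 3 (miR-6908-5p, miR-6937-5p and miR-7018-5p). For the 26 of them with both probes well above background on all arrays, the median gap between the probes' log2 differences was 0.26, and 1 of the 26, miR-6908-5p, had opposite directions. Its second probe gave 208, 203 and 199.9 in control and 269.9, 289 and 278 in LPS samples. The widest gap among these 26 was 1.96, for miR-7048-5p. Gaps were wider for members with a probe at or near background, such as miR-6960-5p (3.33) and miR-7075-5p (2.51), where values set to the floor enter the gap. All 362 probes that could be set against a RefSeq sequence matched the 3′ end of their own mature miRNA.

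The members shared a base composition that their selection by name did not use. Over the 177 with a sequence the median share of purines (A and G) was 68.2%, against 47.6% for 1431 other miRNAs of the array and 28.0% for 175 3p arms of the same numbers. A run of GGGG stood in 37.9% of the members and 8.04% of other miRNAs, and GAGA in 32.2% and 7.69%. Detected members were richer still: the median purine share was 65.2% in 113 members never detected, 73.3% in 64 detected on at least 1 array and 78.3% in 31 detected on all 6. GAGA stood in 26.5%, 42.2% and 54.8% of these sets. The other miRNAs of the array showed the same trend from a lower start. In the 140 of them on all 6 arrays that have a sequence, the median purine share was 56.8% and GAGA stood in 21.4%. The trend with detection was therefore not particular to the number range. The 3p arms ended in AG in 136 of 175 cases (77.7%), against 8.52% of 1256 miRNAs that belong to neither arm. The 5p arms began with GU, the start of most introns, in 15 of 177 cases (8.47%). For the same 1256 other miRNAs that share was 3.42%, and for the 3p arms 1.14%.

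The same feature can be read on the probes, as the sequence TCTC, which is the reverse complement of GAGA. It is shown in capitals in the main probes of the following members, of which miR-6931-5p has none.
miR-6946-5p probe: gcatttcttTCTCTCcc
miR-6978-5p probe: caccagctTCTCTCTC
miR-7084-5p probe: acTCTCtacctctatcctc
miR-6931-5p probe: agtcccccactccc
TCTC, read on the probe strand only, stood in the main probes of 46 of 201 members (22.9%) and 139 of 1881 miRNAs of the array (7.39%). Of members with it, 27 of 46 (58.7%) were detected on at least 1 array, and of those without it 46 of 155 (29.7%); over the whole array the shares were 54.0% with and 22.3% without it. Among the members on all 6 arrays, the 18 with TCTC had a median log2 difference of -2.48 (14 lower, 4 higher), and the 17 without it -0.23 (9 lower, 8 higher). On the spiked-in scale these medians were -0.06 and 2.18. The motif was picked with earlier results of these data known, so these are descriptions without a test. Other miRNAs of the array on all 6 arrays had a median of -1.58 with TCTC (32 miRNAs, 19 lower and 11 higher) and 0.99 without it (131, 34 lower and 92 higher), so the gap was not particular to the number range. Whether the sequence acts on the probe signal or marks the RNA was not tested.

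**Figure D4:**
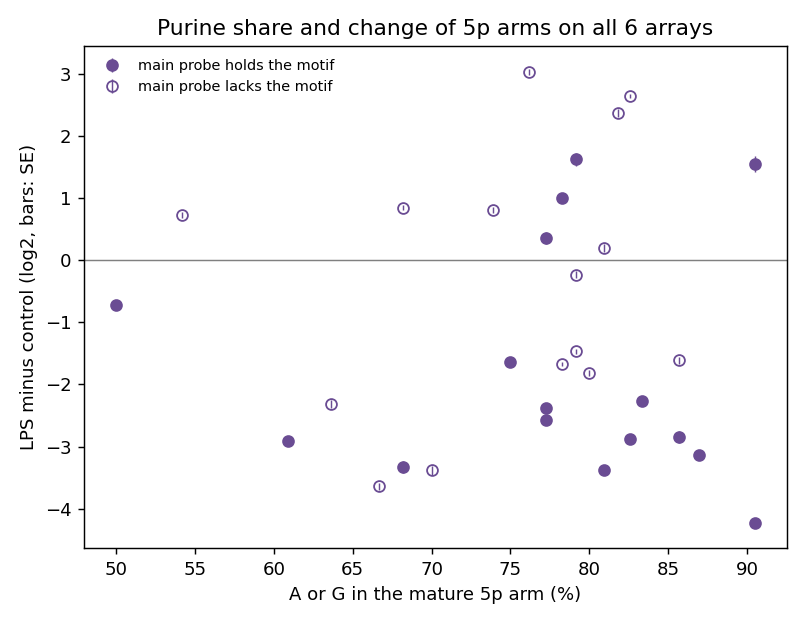
Share of A or G in the mature sequence (percent) against the log2 difference, LPS minus control, with its SE, for the 31 members detected on all 6 arrays that have a RefSeq sequence. Filled points are members whose main probe holds TCTC; the lowest, at -4.23, is miR-6946-5p, and the highest, at 3.03, is miR-6931-5p, whose probe lacks it.

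The members did not form seed families of any size. The 177 sequences held 156 different seeds, and 39 members shared a seed with another member. Only in 2 pairs were both sharers detected: miR-6965-5p and miR-7047-5p share GAGGGAG, and miR-6916-5p and miR-6942-5p share AGGAGGA. miR-6965-5p and miR-7047-5p were both higher, by log2 differences of 1.63 and 0.80. miR-6942-5p was well above background on no array and miR-6916-5p was detected on 1 LPS array only, so no direction was read for this pair. By position, 176 of the 177 members lay within the span of a protein-coding gene, as did all 31 of the matched members detected on all 6 arrays. The gene table used holds no exons, so whether a member lies in an intron was not determined.

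Canonical mirtrons and LPS-responsive miRNAs give the setting. Of the mirtron arms miR-877-5p, miR-877-3p, miR-1224-5p and miR-1224-3p, 3 of 4 were tested, of which 1 was higher and 2 lower. miR-1224-5p, the only one on all 6 arrays, fell by 0.42 on the log2 scale relative to the shared miRNAs but was higher by 1.99 on the spiked-in scale. Of 7 miRNAs known to respond to LPS in macrophages, such as miR-155-5p and miR-146a-5p, 7 were higher relative to the shared miRNAs. So were 65.5% of all 412 tested miRNAs and 58.1% of the 198 on all 6 arrays.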

How the data were processed

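Exosomal RNA of 6 samples (3 control, 3 LPS) was measured on Agilent 1-colour arrays holding 4415 probes for 1881 miRNAs. The deposited intensity per spot is the processed signal, background-subtracted and detrended by the scanner software, version 10.7.1.1 per the file headers; the submitters' processing notes name Agilent Feature Extraction 9.1. A table of log2 values was deposited too; its normalisation by the authors is not stated in those sources, and it served as an alternative only.

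Spots that were not controls or outliers were averaged per probe, and the brightest probe stood for a miRNA. Signals were scaled to each array's 75th percentile, taken over the 198 miRNAs that all 6 arrays detected, then floored at 9.89 and taken to log2. The 412 miRNAs detected on all 3 arrays of a group were tested with limma 3.58.1 in R 4.3.3 (lmFit, eBayes), with Benjamini-Hochberg adjustment over all 412 and a threshold of 0.05. On simulated data with 200 changed miRNAs the fit recovered 200, and called 5 of 212 unchanged ones. The simulated noise was drawn from the spread of these samples after scaling and flooring. It therefore says nothing about the scaling, the floor, the brightness gap or variation between cultures. The number of arrays limits the precision.

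Named members were the brightest 8, the 8 with the highest and the 8 with the lowest change among those on all 6 arrays, the 6 largest bounds in each direction, and sharers of a seed that were detected. Members and lists, including the markers and mirtrons, were chosen with earlier results of these data known. Alternatives covered scaling, background, floor, detection, probe summary, the deposited table, blocks and samples left out. Sequences and gene spans are from RefSeq tables of GRCm38.p6; no genome was used.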

Additional observations from a re-analysis of the deposited data

How the results depend on the processing

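The number of members called higher, 27, became 45 without scaling, 46 with spiked-in scaling and 11 with normexp. It was 12 when only miRNAs detected on all 6 arrays were tested, and 14 when detection meant well above background. The 12 and 14 come from fits with other sets of tested miRNAs, and no share over all of those is given. The number called lower, 32, became 49 with normexp, 14 with spiked-in scaling and 14 without scaling. It was 21 when the 75th percentile was taken over all miRNAs (14.3% of all tested miRNAs). Leaving out 1 sample gave 25 to 29 higher and 32 to 33 lower. No share over all tested miRNAs is given for these refits or for the replicate block below, so their counts only check those of the main fit. With well above background as detection, members detected per array averaged 35.0 in control and 51.3 in LPS samples, and leaving out 1 sample gave 39.0 to 40.5 and 60.0 to 64.5. Across 24 named members that were tested, 509 comparisons with an alternative kept direction and call, 12 reversed and 1 was lost. The reversals were miR-6908-5p (0.47 with the percentile taken over all miRNAs, 1.5 unscaled, 1.69 spiked-in), miR-7082-5p (0.62 unscaled, 0.81 spiked-in), miR-6987-5p (-0.038 with normexp) and miR-6942-5p, which was not well above background (0.34, 0.30, 0.31 in that order of scalings, 0.28 quantile, 4.16 gene total signal, 0.12 deposited table). The cause was not tested. The replicate block, using the numbers in the titles, gave 27 higher and 32 lower and changed no call of a named member. Pairing was checked on each sample's deviations from its group mean, over the shared miRNAs. These deviations correlated at -0.40, -0.22 and -0.28 between same-numbered samples. By them, 0 of 6 samples correlated best with their own number, so the numbers pair nothing here. The added restriction to slide row 1 was chosen after seeing the data.

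Limits are the 3 arrays per group on 1 slide, the brightness gap between groups, which makes a direction relative to its reference, and the weak signal of most members: 28 of the 62 tested have only a bound. Probes of different miRNAs cannot be ranked by abundance.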
